A study of Mus musculus with 2 samples.

Results

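The 7 secreted factor genes of tumor macrophages, Inhba, Igf1, Vegfa, Hbegf, Pf4, Osm and Thbs1, were followed across cell states and host genotypes in a mouse melanoma. They were taken by symbol from the raw count table, where 7 of 7 were present among 14654 genes, and they had been picked with differences between the libraries already seen. Cells of YUMMER1.7, a BRAF-mutant and immunogenic mouse melanoma line, formed tumors under the skin of male C57BL/6 mice, taken at 11 days, with mice of 8 weeks of age. The hosts were wild type (WT) or lacked Siah2 (Siah2-/-), a ubiquitin ligase gene, throughout the body, while the melanoma cells injected were the same line in both groups. Live CD45+ leukocytes were sorted, a smaller share of CD45- cells was added back, and tumors of a genotype were pooled, with the number of tumors not given in the sources used here. There was 1 droplet library for each genotype, each sequenced on its own lane, so that genotype, tumor pool, library and lane cannot be told apart.

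Macrophages feed the tissue around them with growth factors, and the factors fall into families. Inhba encodes the beta A chain whose dimer is activin A, a TGF-beta family ligand that signals through activin receptors and Smad2 and Smad3. Igf1 encodes insulin-like growth factor 1, which acts through the receptor Igf1r, is held by IGF binding proteins and is a known product of tissue-resident macrophages. Vegfa drives blood vessel growth, Hbegf is a membrane-bound ligand of the EGF receptor family, and Osm is an IL6 family cytokine read through Osmr or Lifr with Il6st. Pf4 and Thbs1 are best known as contents of platelet granules, a chemokine and an adhesive matrix protein, and both are also made by myeloid cells.

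The authors kept 4512 WT cells and 5563 cells of the library labelled Siah2-/- (the Siah2-/- library), with 64781513 and 59080246 unique molecular identifiers (UMIs) and medians of 11434.5 and 8699 UMIs per cell. Levels are given as UMIs summed over a class of cells per 1e+06 UMIs of that class (CPM), with a 95% Poisson interval, and differences as log2 ratios of the Siah2-/- library to WT with a 95% interval. With 1 library per genotype there was no test, and the intervals cover counting error only. Siah2 itself, read at the 3′ end of its transcript, had 660 WT and 505 Siah2-/- UMIs, or 10.2 and 8.55 CPM, which checks nothing about the genotype labels because the sources used here do not give the deleted part of the gene. The cell barcodes shared by the libraries numbered 34. Macrophages were gated by summed markers (at least 32 UMIs per 10000 of markers that include Csf1r, C1qa, C1qb, C1qc, Adgre1, Fcgr1, Cd68 and Lyz2, with few T cell, collagen or dendritic cell UMIs), which gave 1992 WT and 2346 Siah2-/- cells, and 75 of the 10075 cells lay within 25% of this threshold. Csf1r was detected in 99.0% and 97.1% of them. States within the macrophages were gated in the same way from separate marker lists, with no member gene in any list. Barcodes with both T cell and macrophage markers, 339 WT and 381 Siah2-/-, were kept out of the macrophages, and no doublet caller was run.

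The state mix of the macrophages differed between the libraries. The resident-like state (Folr2, Fcrls, Ccl8, Cd163, Lyve1, Gas6) held 198 WT and 44 Siah2-/- cells, and the monocyte-like state (Chil3, Vcan, Hp, Ly6c2, Plac8) held 238 and 428. The state rich in Mgl2 and MHC class II genes was the most populous in both libraries with 878 and 813 cells. Interferon-induced cells made up 6.43% and 3.88% of macrophages, and there were 154 and 65 cycling cells, 189 and 352 cells past several state gates, and 164 and 89 past none. These states are ranges along gradients. The macrophages within 25% of a threshold numbered 88 for the resident-like gate (347 past it), 394 for the monocyte-like gate (1134), 400 for the interferon gate (685), 335 for the Mgl2 and MHC class II gate (3090) and 62 for the cycling gate (219). The classes outside the macrophages were T and NK cells (1047 WT and 2308 Siah2-/- cells), mature dendritic cells (DC; 39 and 67), immature DC (22 and 26) and CD45-negative cells with collagen transcripts (728 and 144). The last had a UMI of Hmga2, taken here as a tumor-like marker, in 621 and 125 cells. Of the other tumor-like genes searched, Mlana had no UMI in them in either library and Dct none in WT. Pmel and Mitf had UMIs in both libraries. Since these markers went different ways, the cells were left unnamed. Ptprc, which encodes CD45, had a UMI in 12.9% of WT and 28% of Siah2-/- cells with Hmga2, and in 11.2% and 21.1% of those without.

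Summed over the macrophages, 5 members were at least 2-fold higher in the Siah2-/- library, Igf1 was at least 2-fold lower and Pf4 lay within 2-fold. Of the 11836 genes with at least 20 UMIs, 4.71% were at least 2-fold higher and 3.27% at least 2-fold lower, and since the members were picked on this contrast nothing is read from their own count. Inhba went from 39 UMIs in WT to 750, or from 1.71 to 30.9 CPM, a log2 ratio of 4.17 (3.71 to 4.68). It ranked 4 from the highest among the 11818 genes with UMIs in both libraries. Igf1 went from 325 UMIs to 27, or from 14.2 to 1.11 CPM, a log2 ratio of -3.68 (-4.30 to -3.11). It ranked 13 from the lowest. Both ranks are in the comparison on which the members were picked, so that nothing is read from the places of the 2 genes near its opposite ends. Thbs1 went from 41.4 to 188 CPM (log2 ratio 2.18, 2.08 to 2.29) and Vegfa from 10.3 to 43.3 CPM (2.08, 1.87 to 2.29). Hbegf went from 2.02 to 4.74 CPM (1.23, 0.73 to 1.76) and Osm from 122 to 276 CPM (1.17, 1.11 to 1.24). Both were within 2-fold under some other settings, Hbegf in 2 of 10 (lowest 0.87) and Osm in 3 of 10 (lowest 0.78). Pf4, by far the deepest counted of the members with 12491 and 8997 UMIs, went from 548 to 370 CPM (-0.56, -0.60 to -0.52).

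**Figure D1:**
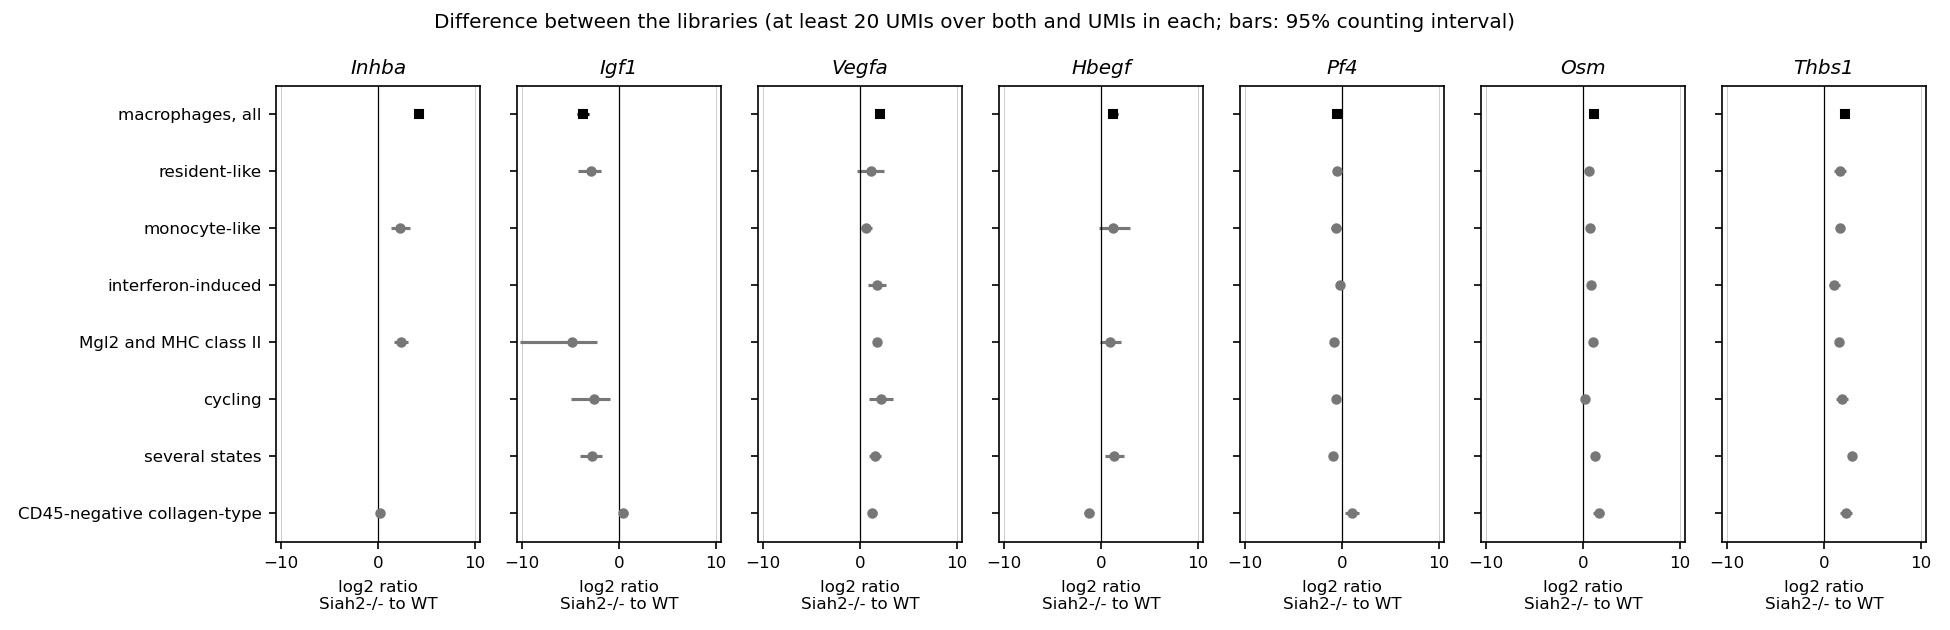
Log2 ratio of the Siah2-/- library to WT (x axis) for each member in macrophages together (squares) and in the gated classes (circles), with 95% counting intervals, drawn where a class had at least 20 UMIs and UMIs in both libraries. Inhba lies right of 0 and Igf1 left of 0 in the macrophage classes shown, while in CD45-negative cells the values are 0.22 and 0.43.

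Sums over a class do not separate the number of cells that carry a transcript from the amount in each. Fewer cells of a type and less RNA per cell cannot be told apart in them, and therefore the share of macrophages with a UMI is given for each member. Beside it stands the share in T and NK cells (median depth 9276 and 7440.5 UMIs per cell, against 10123.5 and 9035 in macrophages). Whether T and NK cells transcribe the members themselves was not tested. For Inhba the share of macrophages with a UMI was 1.15% (WT) and 7.89% (Siah2-/-), against 0% and 0.347% of T and NK cells. The 0 of 1047 WT T and NK cells allows a share of up to 0.287%, the limit for a count of 0 being taken as 3 counts throughout. Thinned to 4000 UMIs per cell, the macrophage shares were 0.653% and 5.54%. The highest Siah2-/- cell held 30 of the 750 UMIs. In smaller classes single cells weighed more, with 30 of 140 UMIs in cells past several gates, 20 of 98 in the Mgl2 and MHC class II state and 17 of 76 in monocyte-like cells. In WT, 1 cell of the Mgl2 and MHC class II state held 8 of the 20 UMIs of that state and of the 39 of all macrophages.

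Of the states described here, cells past several gates held the highest Inhba level of the Siah2-/- library, with 140 UMIs at 51.6 CPM. The 253 of these cells that were past the monocyte-like and interferon gates alone, the most frequent combination, held 54 of the UMIs at 30.5 CPM, so that the rest came from less frequent combinations. Monocyte-like cells came next with 76 UMIs at 24.9 CPM, and the intervals of the 2 do not overlap. The Mgl2 and MHC class II state was at 10.4 CPM and the interferon-induced state at 7.72 CPM, and these intervals overlap. Resident-like cells held 1 UMI and cycling cells none. In WT the highest of these states was the monocyte-like one with 11 UMIs, or 5.17 CPM.

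The libraries were also compared within states. The log2 ratio was 2.27 (1.35 to 3.33) in monocyte-like cells, where 4.37% of genes were past 2-fold in this direction, and 2.35 (1.65 to 3.12) in the Mgl2 and MHC class II state, where 3.43% were. These states were spread over Leiden clusters of the macrophages, made without the member genes, and the clusters differed between the libraries. Of the Mgl2 and MHC class II state, 402 of 878 WT cells were in cluster 1 and 261 of 813 Siah2-/- cells in cluster 4, the largest share in each library. Its ratio did not hold within each cluster, as the cells in cluster 0 held 57.5 CPM in WT (8 UMIs in 14 cells) and 29.1 CPM in the Siah2-/- library (57 UMIs in 178 cells), those in cluster 4 held 6.64 and 2.09 CPM (8 and 6 UMIs), and those in clusters 1 and 2 held 1 or 2 UMIs in either library. In cluster 3 they held 0 UMIs in 13 WT cells and 31 in 90 Siah2-/- cells. Monocyte-like cells were at 4.41 and 28.8 CPM in cluster 3 and at 14.9 and 81.6 CPM in cluster 7, with 3 WT UMIs each time and intervals that do not overlap between the libraries, while in cluster 0 the 2 WT and 6 Siah2-/- cells held 3 UMIs each. In cells past several gates, Inhba had 140 UMIs against 0 in WT, at least 31.8-fold higher when WT is set to a floor of 3 counts over the class, where 4.78% of genes were at least 2-fold higher. This class also differed in its make-up, as 58 of the 140 UMIs lay in the cells of cluster 0, which held 28 Siah2-/- and 2 WT cells of the class, and 54 in those of cluster 3, with 111 and 29 cells. The mean of the within-state log2 ratios, states weighing the same, was 2.18 over the 5 of these states with UMIs in both libraries, against 4.17 for the sum. In 3 of the 5 it rests on few UMIs, with 1 against 1 in resident-like cells and in cells with no state, and 1 against 9 in interferon-induced cells, so that this mean is poorly determined.

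**Figure D2:**
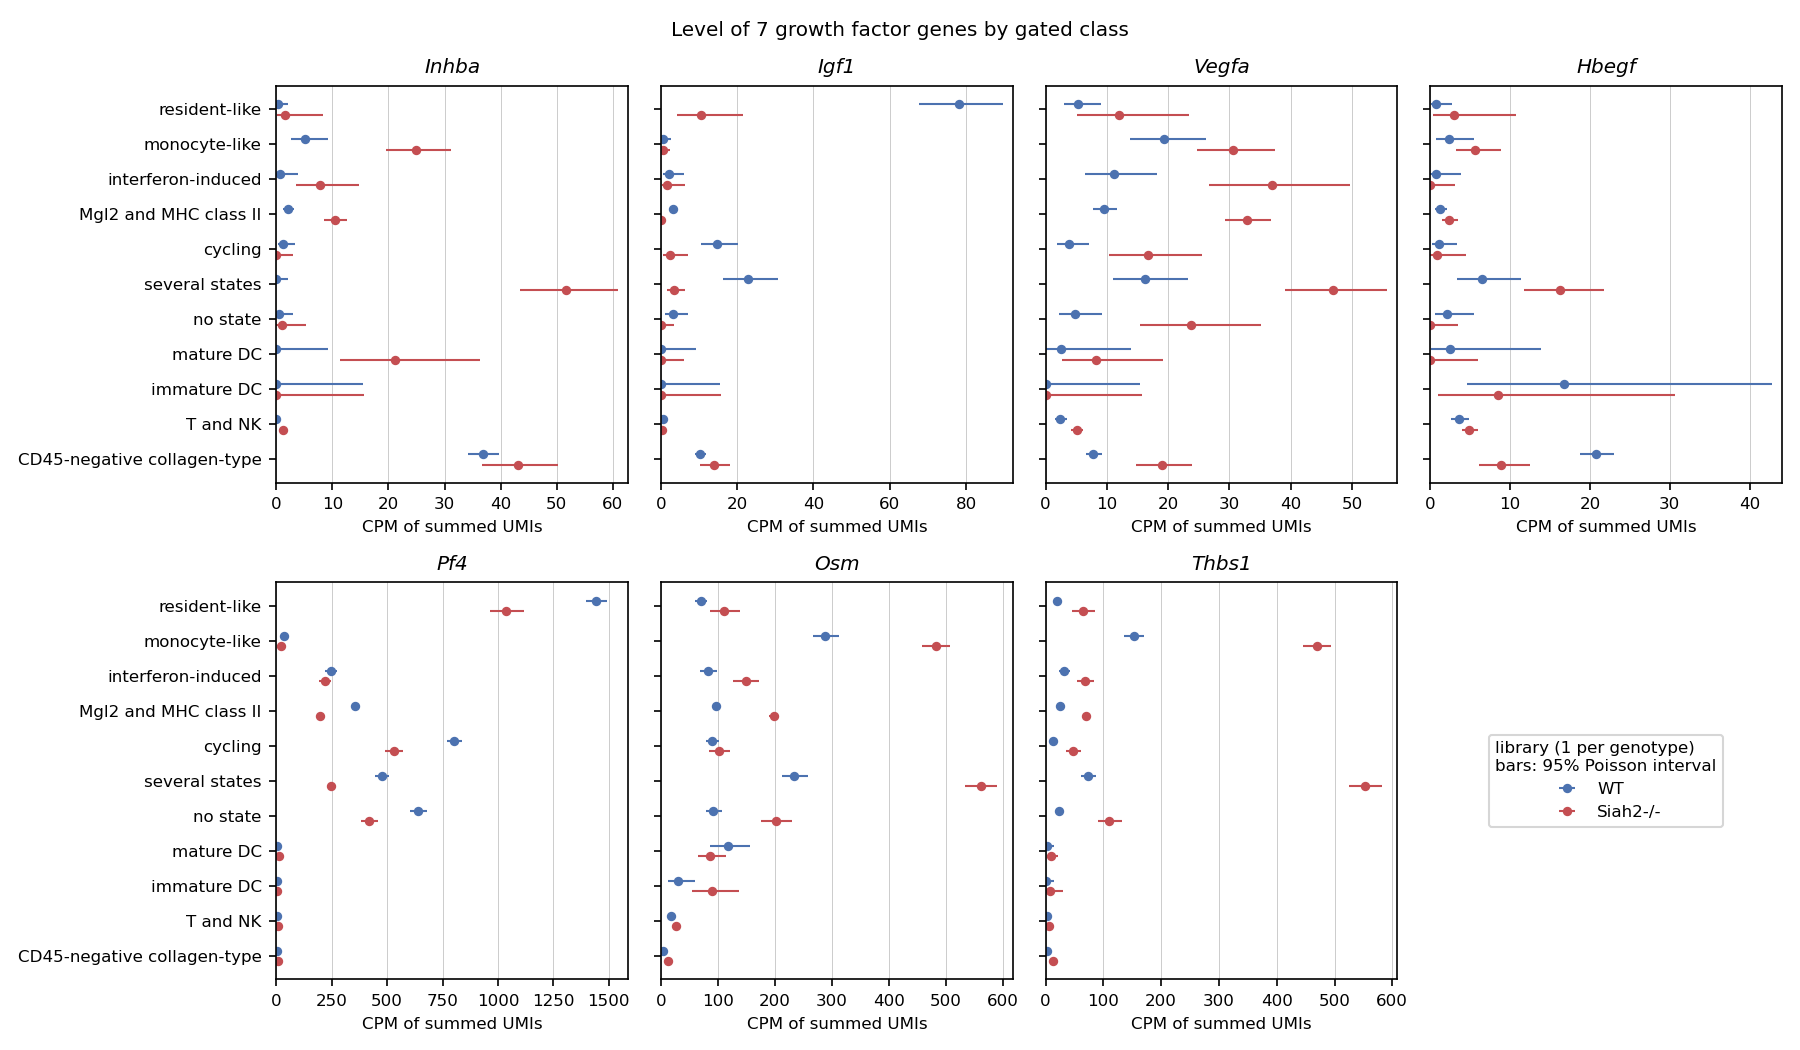
CPM of summed UMIs (x axis, 1 scale per gene) of each member in gated macrophage states, DC, T and NK cells and CD45-negative cells (y axis), with 95% Poisson intervals for 1 library per genotype. Among the macrophage states shown, Inhba is highest in Siah2-/- cells past several gates at 51.6 CPM and Igf1 in WT resident-like cells at 78.1 CPM, while Osm and Thbs1 are highest in cells past several gates and in monocyte-like cells.

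Outside the macrophages, Inhba was highest in the CD45-negative cells, with 677 UMIs in WT and 159 in the Siah2-/- library. The level was 36.8 CPM (34.1 to 39.7) and 43.0 CPM (36.6 to 50.3), the intervals overlap, and the log2 ratio was 0.22 (-0.03 to 0.47). A UMI was found in 48.2% and 52.1% of these deep cells, or 113 of 728 and 23 of 144 cells after thinning to 4000 UMIs. Cells with an Hmga2 UMI held 35.6 and 44.1 CPM and those without 46.8 and 34.5 CPM, so that Inhba was present on both sides of that marker. In WT, the CD45-negative cells held a higher CPM of Inhba than the macrophage states described above. Mature DC held 0 UMIs in 39 WT cells and 13 in 67 Siah2-/- cells, 11 of them in 1 cell, and immature DC held none in either library. Empty droplets, taken as barcodes with at most 100 UMIs, held 4.88 and 6.97 CPM of Inhba, above the level of WT macrophages.

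Inhba (ENSMUSG00000041324) spans chr13:16011851-16031621 on the plus strand of GRCm38. The 250 bases before its start, chr13:16011601-16011850, are shown from RefSeq (GRCm38.p6) because Inhba differed most between the libraries among the members, and 5 motifs were searched in them on both strands (TGANTCA of AP-1, ACGTG of HIF, GAGGAA of PU.1, TTGCNNAA of C/EBP and TATAAA of the TATA box). In capitals are TATAAA, at bases 91 to 86 before the start, and TTGCNNAA, here on the reverse strand, at bases 67 to 60.
Inhba: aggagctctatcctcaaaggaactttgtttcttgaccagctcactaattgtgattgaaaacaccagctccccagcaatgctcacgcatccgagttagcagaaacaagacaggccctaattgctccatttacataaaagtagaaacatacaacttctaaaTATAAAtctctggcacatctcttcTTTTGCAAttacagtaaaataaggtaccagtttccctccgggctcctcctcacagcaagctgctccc
On either strand TATAAA was found in 12.4% and TTGCNNAA in 9.56% of 32851 promoter windows of this length, and a match is a description of the letters, not a site.

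Among WT macrophages, Igf1 was mainly a transcript of the resident-like state. In WT that state held 204 of the 325 macrophage UMIs, or 62.8%, at 78.1 CPM (67.7 to 89.6), and 44.9% of its cells had a UMI. In the Siah2-/- library cells past several gates held 9 of the 27 macrophage UMIs and the 44 resident-like cells 7, or 10.4 CPM (4.19 to 21.5). Of these resident-like cells 11.4% had a UMI. The log2 ratio within the state was -2.91 (-4.24 to -1.84), where 6.45% of 8025 genes were at least 2-fold lower. The number of resident-like cells and the Igf1 level within them were both lower. The gated cells were spread differently over the Leiden clusters, as cluster 5 held 172 of the 198 WT but 16 of the 44 Siah2-/- resident-like cells, and 12 of the latter were in cluster 1. Within cluster 5 the resident-like cells held 88.6 CPM in WT and 8.62 CPM (2 UMIs) in the Siah2-/- library, a log2 ratio of -3.36 (-6.42 to -1.49). In cluster 1 they held 0 UMIs in 11 WT cells and 3 UMIs in 12 Siah2-/- cells, and all cells of that cluster held 4 and 9 UMIs, or 0.743 and 4.51 CPM, so that there the order was turned. The other WT macrophages with Igf1 were cells past several gates at 22.7 CPM and cycling cells at 14.7 CPM, whose intervals overlap. Their log2 ratios were -2.78 (-4.00 to -1.72) and -2.62 (-4.96 to -0.96), where 4.49% and 2.36% of genes were at least 2-fold lower. Of the cells past several gates, 29 WT and 3 Siah2-/- cells were in cluster 5, and they held 39 and 0 Igf1 UMIs, while the 3 WT and 3 Siah2-/- cells in cluster 1 held 1 and 6 UMIs. The Mgl2 and MHC class II state (1.57% of genes lower) had 30 WT UMIs, 14 of them in 1 cell, and 1 Siah2-/- UMI, and monocyte-like cells held 1 and 2 UMIs.

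Along the resident-like list taken as a gradient, Igf1 was higher toward the top in both libraries. In WT the level went from 0.904 CPM without any UMI of the list through 1.81, 9.23 and 43.1 CPM to 125 CPM (107 to 145) above 32 list UMIs per 10000. In the Siah2-/- library it went from 0.415 CPM through 0.403, 1.43 and 11.1 CPM to 20.8 CPM (9.49 to 39.4). The highest steps held 100 WT and 26 Siah2-/- cells, and 70.0% and 23.1% of them had a UMI. In the 3 highest steps the intervals of the libraries did not overlap, and in the 2 lowest they did. Inhba ran against it, at 39.4 CPM in the Siah2-/- macrophages with no resident-like UMI and 0 UMIs in the 26 cells of the highest step.

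**Figure D3:**
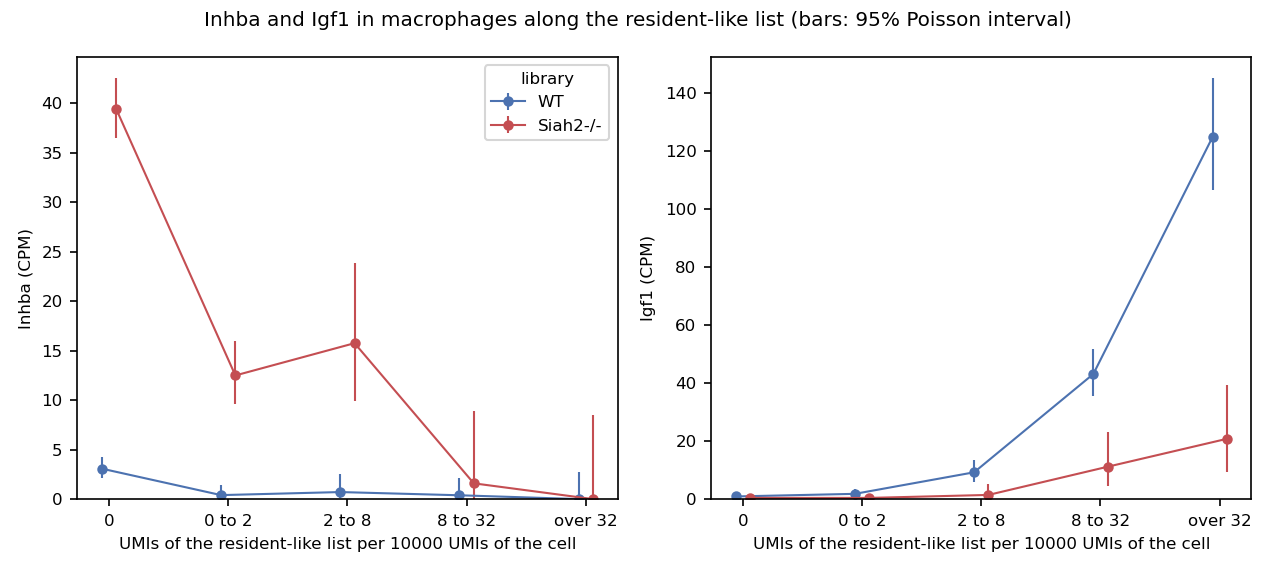
Inhba (left) and Igf1 (right) in CPM, with 95% Poisson intervals, against the summed UMIs of the resident-like list per 10000 UMIs of the cell, in macrophages of each library. Inhba stands at 39.4 CPM in the Siah2-/- macrophages with no UMI of the list, and Igf1 reaches 125 CPM at the top of the list in WT.

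In other cells Igf1 was low or similar between the libraries. CD45-negative cells held 188 UMIs in WT and 51 in the Siah2-/- library, or 10.2 and 13.8 CPM, a log2 ratio of 0.43 (-0.04 to 0.89) with overlapping intervals. In WT, those without an Hmga2 UMI held 25.9 CPM (19.4 to 33.8) and those with it 8.27 CPM (6.93 to 9.79), intervals that do not overlap. In the Siah2-/- library the order was turned, at 7.40 CPM (3 UMIs) and 14.6 CPM, with overlapping intervals. DC held no Igf1 UMI, and the 0 of 39 WT and 0 of 67 Siah2-/- mature DC allow shares of up to 7.69% and 4.48%. The share of T and NK cells with a UMI was 0.478% and 0.130%, against 7.93% and 0.810% of macrophages. Empty droplets held 10.4 and 8.21 CPM, with overlapping intervals.

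Igf1 (ENSMUSG00000020053) spans chr10:87858265-87937042 on the plus strand of GRCm38. The 250 bases before the start in the RefSeq table lie within an annotated Igf1 exon, therefore only the stretch chr10:87861051-87861080 is shown, bases 60 to 31 before that start, because it holds both motifs found. In capitals are GAGGAA, the letters of PU.1, a factor that sets the macrophage lineage, and TGANTCA, the letters of AP-1.
Igf1: GAGGAAgggaaggagctggaactTGAATCA
GAGGAA occurred in 23.3% and TGANTCA in 6.75% of the promoter windows, and none of the 5 motifs searched was shared by the Inhba and Igf1 windows.

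Macrophages with both Inhba and Igf1 were few or not found. In WT, 23 macrophages had Inhba, 158 had Igf1 and none had both, where the product of the shares gives 1.82 cells. The 0 of 1992 cells allows a share of up to 0.151%. In the Siah2-/- library, 185 had Inhba, 19 had Igf1 and 3 had both, or 0.128% (0.026 to 0.373), against 1.5 by the product. Thinned to 4000 UMIs per cell the counts of cells with both were 0 and 2, against products of 0.463 and 0.610. With products this small, an excess or a lack of cells with both was not detectable at this depth. The 3 cells with both had a C1qa level of 91.0 CPM, against 3801 CPM in Siah2-/- macrophages with neither, and no Fcrls or Folr2 UMI, and 2 of them were in the interferon-induced state. By contrast, 79 of 728 WT CD45-negative cells had both transcripts, where the product gives 63.2, and 20 of 144 in the Siah2-/- library (16.7 by the product). After thinning these were 6 and 0 cells, with products of 5.12 and 0.958.

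Other genes differed between the cells with Inhba and those with Igf1. Macrophages of either library with Inhba and no Igf1 (205 cells) held 12.8 CPM of Fcrls, a resident macrophage gene. Those with Igf1 and no Inhba (174 cells) held 767 CPM of Fcrls, 343 CPM of Folr2 and 1430 CPM of Pf4. Their C1qa level was 8549 CPM against 2671 CPM in the cells with Inhba, and the MHC class II gene H2-Ab1 stood at 3776 against 11441 CPM. The cells with Igf1 were the deeper ones, with a median of 13660 UMIs against 8187. Most of the Inhba cells came from the Siah2-/- library and most of the Igf1 cells from WT, so that library and cell group are mixed in this difference. Within WT alone, Fcrls was at 79.1 CPM in the 23 cells with Inhba and 851 CPM in the 158 cells with Igf1.

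Vegfa was spread over the macrophage states. In the Siah2-/- library, cells past several gates held 46.8 CPM, interferon-induced cells 36.9 CPM, the Mgl2 and MHC class II state 32.8 CPM and monocyte-like cells 30.5 CPM. In WT, monocyte-like cells held 19.3 CPM and cells past several gates 16.2 CPM, with overlapping intervals. The difference between the libraries was in the same direction in each of the 7 macrophage states described here, with log2 ratios from 0.66 (0.12 to 1.23) in monocyte-like cells to 2.30 (1.16 to 3.59) in cells with no state. The interval of 1 state, the resident-like one, spanned 0 (1.15, -0.31 to 2.51). Vegfa was higher in CD45-negative cells too (7.78 and 18.9 CPM) and in T and NK cells (2.33 and 5.08 CPM), where 4.56% and 4.55% of genes were at least 2-fold higher. Empty droplets also differed, at 9.96 and 25.1 CPM, and the part of free RNA in the Vegfa differences was not tested. With the empty-droplet profile subtracted at 5% of the UMIs, the log2 ratio in macrophages was 2.11. The share of cells with a UMI was 9.19% and 26.8% in macrophages, against 2.39% and 3.94% in T and NK cells.

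Hbegf, the EGF receptor ligand, was higher in CD45-negative cells than in the sum of macrophages in both libraries. In the Siah2-/- library, though, macrophages past several gates held 16.2 CPM against 8.93 CPM in CD45-negative cells. In macrophages 37 WT cells and 67 Siah2-/- cells had a UMI, or 1.86% and 2.86%. These shares are at or below the 3.06% and 3.21% of T and NK cells. The comparison does not decide whether they are background, because Hbegf transcription in T and NK cells was not tested. Empty droplets held 9.57 and 4.80 CPM of Hbegf, above the macrophage levels of 2.02 and 4.74 CPM and lower in the Siah2-/- library, and the part of free RNA in the Hbegf differences was not tested. Cells past several gates had a UMI in 4.76% (2.20 to 8.85) and 6.25% (3.96 to 9.31) of the cells, with intervals that overlap those of T and NK cells (2.10 to 4.29 and 2.53 to 4.01). Their levels were 6.49 and 16.2 CPM (log2 ratio 1.32, 0.38 to 2.38), the first under that of the empty droplets. Of their UMIs, 8 of 12 in WT and 31 of 44 in the Siah2-/- library lay in cluster 7. There the level was 31.3 CPM (13.5 to 61.6) in WT and 44.5 CPM (30.2 to 63.1) in the Siah2-/- library. Cells of this class in cluster 2 held 1.43 and 8.07 CPM, and those in cluster 3 held 0 and 5.25 CPM. CD45-negative cells held 382 UMIs in WT and 33 in the Siah2-/- library, or 20.8 and 8.93 CPM, a log2 ratio of -1.22 (-1.78 to -0.70), where 3.99% of genes were at least 2-fold lower. Hbegf was uneven among them, as 73 of the 728 WT cells held 86.9% of the UMIs and 381 of the 382 UMIs lay in cells with an Hmga2 UMI. Ungated WT cells with an Hmga2 UMI, 96 in number, held 197 more UMIs at 64.2 CPM, cells that the collagen gate left out. The 15 such ungated cells of the Siah2-/- library held none.

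Pf4 had a UMI in 56.7% and 39.0% of macrophages, against 4.39% and 6.28% of T and NK cells. It was highest in resident-like cells, at 1444 CPM in WT and 1038 CPM in the Siah2-/- library, with a UMI in 97.0% and 90.9% of the cells. Cycling cells had 802 and 530 CPM. Monocyte-like cells were low, at 32.9 and 21.7 CPM. The log2 ratio was below 0 in each of these states, from -0.96 (-1.10 to -0.81) in cells past several gates to -0.17 (-0.40 to 0.07) in interferon-induced cells, and within 2-fold in all of them. Within clusters it was not uniform, since cells past several gates held 120 and 198 CPM in cluster 2 and the Mgl2 and MHC class II state 73.0 and 148 CPM in cluster 4, intervals that do not overlap. Pf4 climbed along the resident-like list in both libraries, from 171 to 1657 CPM in WT, and was thus high at the end of the list where Igf1 was. In WT, 63 of the 71 macrophages with an Igf1 UMI after thinning also had Pf4, where the product of the shares gives 31.1, while Inhba and Pf4 were found together in 30 Siah2-/- cells against a product of 35.6. Of the platelet list, Itga2b and Ppbp had no UMI in Siah2-/- macrophages and the summed level was 0.745 CPM in WT macrophages and 0.0412 CPM in the others. Outside macrophages, DC, T and NK cells and CD45-negative cells held 3.54 to 9.81 CPM of Pf4, while empty droplets held 211 and 170 CPM.

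Pf4 (ENSMUSG00000029373) spans chr5:90772435-90773383 on the plus strand of GRCm38. Its 250 bases upstream, chr5:90772185-90772434 from RefSeq (GRCm38.p6), are shown because Pf4 shares the resident-like end with Igf1. They hold GAGGAA, here on the reverse strand at bases 8 to 3 before the start, and TTGCNNAA at bases 212 to 205, both in capitals. GAGGAA was found in the Igf1 stretch and also in a Vegfa window, at bases 35 to 30 before its start, and TTGCNNAA also in the Inhba window. Neither set of letters was therefore particular to the genes of the resident-like end.
Pf4: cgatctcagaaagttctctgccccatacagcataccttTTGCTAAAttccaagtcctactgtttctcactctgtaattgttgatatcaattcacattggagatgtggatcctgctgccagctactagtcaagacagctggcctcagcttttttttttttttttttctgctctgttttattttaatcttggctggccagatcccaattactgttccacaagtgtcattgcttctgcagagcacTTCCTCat

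Osm and Thbs1 formed the monocyte side of the set. The highest Osm levels were in cells past several gates (234 CPM in WT and 561 CPM in the Siah2-/- library) and in monocyte-like cells (288 and 483 CPM). Thbs1 had 73.0 and 553 CPM in the first and 153 and 470 CPM in the second. Most cells past several gates combined the monocyte-like and the interferon gates (390 of 541), and these held 280 and 670 CPM of Osm and 81.7 and 633 CPM of Thbs1. Both genes were lowest among macrophages in resident-like or cycling cells. Their log2 ratios were above 0 in each of the 7 states, from 0.17 (-0.15 to 0.49) in cycling cells to 1.26 (1.11 to 1.42) in cells past several gates for Osm. For Thbs1 they ran from 1.08 (0.54 to 1.64) in interferon-induced cells, at 32.1 and 67.8 CPM, to 2.92 (2.67 to 3.19) in cells past several gates. Osm in monocyte-like cells was turned in 2 clusters without overlap, at 416 and 233 CPM in cluster 4 and at 462 and 321 CPM in cluster 8, which held 19 WT and 134 Siah2-/- cells of that state. After thinning, Osm and Thbs1 were found together in 120 WT cells against a product of 63.1, and in 424 Siah2-/- cells against 329.

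These 2 genes also had signal outside the macrophages. Osm was detected in 12.1% and 15.4% of T and NK cells and Thbs1 in 1.72% and 4.51%, against 44.4% and 61.3%, and 19.9% and 43.3%, of macrophages. Empty droplets held 84.0 and 181 CPM of Osm and 40.1 and 93 CPM of Thbs1. Thbs1 was also higher in CD45-negative cells (2.50 and 12.4 CPM) and in T and NK cells (1.62 and 6.44 CPM), at levels under those of the empty droplets, whose part in these differences was not tested. Osm was at 117 and 86.6 CPM in mature DC, with overlapping intervals, and at 29.2 and 89.1 CPM (7 and 21 UMIs) in immature DC. In the Siah2-/- library both values lay under that of the empty droplets. The 5 genes of the neutrophil list moved with the libraries, with 1368 and 3465 summed UMIs in macrophages and 41.7 and 236 CPM in cells past several gates, while the defining neutrophil genes Cxcr2 and Retnlg were at 0.438 to 1.28 CPM in macrophages. The 9 T and NK genes summed to 42.4 and 95.3 CPM. In the 955 WT and 589 Siah2-/- macrophages with no UMI of the T and NK, neutrophil and platelet lists, the log2 ratios were 1.40 for Osm and 2.29 for Thbs1, against 1.17 and 2.18 in all macrophages. There Inhba was at 3.20, Igf1 at -4.71 and Pf4 at -1.10, with Pf4 then past 2-fold.

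When Leiden clusters took the place of the gated states, a comparison chosen after the values were seen, the direction in macrophages held in some members and not in others. There were 11 clusters, and those with at least 20 UMIs of a gene over both libraries are counted. Inhba was higher in the Siah2-/- library in 3 of 3 and Igf1 lower in 2 of 2, with no overlap of the intervals. Vegfa was higher in 9 of 9, without overlap in 5. Hbegf was higher in 1 of 2, cluster 7 (19.7 and 35.1 CPM), and lower in the other, cluster 0 (14.9 and 5.58 CPM), both with overlapping intervals. Thbs1 was higher in 9 of 11, without overlap in 7, and the 2 clusters in which it was lower overlapped. Osm was higher in 9 of 11, without overlap in 6, and lower in clusters 4 (257 and 220 CPM) and 8 (436 and 319 CPM), the latter without overlap. Pf4 was higher in 6 of 10 and lower in 4, without overlap in 5 and 4, from a log2 ratio of -1.51 (-1.69 to -1.33) in cluster 5 to 2.30 (1.83 to 2.81) in cluster 0. The lower sum of Pf4 in Siah2-/- macrophages was therefore not shared by most clusters.

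The levels of the members were compared over 13 sums of macrophage states by library with at least 50 cells each, which leaves out Siah2-/- resident-like cells. Pearson's r of log2(CPM + 10) was 0.97 between Osm and Thbs1, 0.84 between Inhba and Thbs1, 0.75 between Inhba and Vegfa, 0.62 between Igf1 and Pf4 and -0.33 between Inhba and Igf1. The sums share 2 libraries and 1 set of gates, so these values describe the pattern. Over 18 sums that include the other classes, the genes most like Inhba among 4580 were Cnn3 (0.85), Cd9 (0.83), 1110038F14Rik (0.83), Rab6a (0.83) and Pttg1ip (0.82). The first, second and last were highest in Siah2-/- CD45-negative cells and the others in Siah2-/- mature DC. WT mature DC (39 cells) were under the minimum of 50 cells, so that a peak in mature DC could only be in the Siah2-/- library. Cnn3 encodes a calponin and Cd9 a tetraspanin. The genes most like Igf1 were Cela1 (0.90), Cbr2 (0.90), Itsn1 (0.85), Wwp1 (0.84) and Npl (0.84), each highest in resident-like cells. That sum could only be of WT, as Siah2-/- resident-like cells were left out here too.

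Ligand relatives, binding proteins and receptors were taken from lists of 77 genes besides the members, of which 48 had enough UMIs in macrophages. There, 6 were at least 2-fold higher and 6 at least 2-fold lower in the Siah2-/- library, beside 4.71% and 3.27% of all genes tested, and the median log2 ratio of the 48 was 0.02 against -0.05 for all genes. Among ligands, Pgf, the placenta growth factor of the VEGF family, had a log2 ratio of 1.88 (1.34 to 2.45). Nrg1, a neuregulin of the EGF family, was at 1.59 (1.34 to 1.84), and Areg, which encodes amphiregulin, at 1.37 (0.38 to 2.46) from 12 and 33 UMIs. Lower were Gas6, a TAM receptor ligand that is also part of the resident-like gate, at -3.37 (-3.65 to -3.11), and the platelet-derived growth factors Pdgfc at -1.23 (-1.69 to -0.78) and Pdgfa at -1.03 (-1.31 to -0.76). Tgfb1 was at 195 and 194 CPM, Csf1 had a log2 ratio of 0.01 (-0.40 to 0.42), and Grn, the granulin precursor, of -0.29 (-0.31 to -0.26). Vegfb and Il6 were at -0.64 (-1.02 to -0.27) and 0.87 (0.39 to 1.36).

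Among inhibitors and carriers, Bambi, a decoy receptor of the activin and TGF-beta pathway, went with Inhba from 6.80 to 15.8 CPM (log2 ratio 1.22, 0.95 to 1.5). Igfbp4, an IGF binding protein, went with Igf1 from 90.7 to 33.2 CPM (-1.45, -1.57 to -1.33). It was highest among macrophages in resident-like cells, with 711 WT and 86 Siah2-/- UMIs (log2 ratio -1.09, -1.43 to -0.76), and stood at 249 and 420 CPM in CD45-negative cells. Igfbp6 was found in CD45-negative cells at 205 and 254 CPM. Srgn, the proteoglycan core of secretory granules, was at 827 and 1552 CPM in macrophages (0.91, 0.88 to 0.93). The sheddase Adam17, which can release Hbegf, was at 45.6 and 48.3 CPM.

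Receptors differed in the cells that held them, and Igf1r, Osmr and Egfr are named although they were chosen after their values were seen. Among VEGF receptors in macrophages, Flt1 was higher at 1.49 (1.20 to 1.79) and Kdr lower at -1.63 (-2.26 to -1.04), both log2 ratios. Nrp1 was at -0.98 (-1.09 to -0.87) and Nrp2 at -0.02 (-0.24 to 0.20), and in CD45-negative cells they stood at 112 and 111, and at 121 and 129 CPM. Igf2r, the scavenging IGF receptor, was at 82.0 and 92.8 CPM in CD45-negative cells and 1.49 and 1.44 CPM in macrophages. Igf1r in CD45-negative cells was at 33.1 and 35.2 CPM. Of the receptors of Osm, Il6st was at 40.1 and 56.6 CPM in CD45-negative cells and Osmr at 2.67 and 4.60 CPM, while Lifr was lower in macrophages at -1.25 (-1.53 to -0.97). Il6ra, at 47.2 and 49.4 CPM in macrophages, and Socs3, a feedback inhibitor of this family, at 250 and 336 CPM, lay within 2-fold. Egfr was at 3.92 and 2.71 CPM in CD45-negative cells, and Cd9, a partner of membrane-bound Hbegf, was at 563 and 666 CPM there and had a log2 ratio of 1.01 (0.93 to 1.09) in macrophages. The thrombospondin partners Cd47, Sdc4 and Itgav had log2 ratios of 0.01 (-0.03 to 0.06), 0.92 (0.86 to 0.98) and -0.22 (-0.40 to -0.05).

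**Figure D4:**
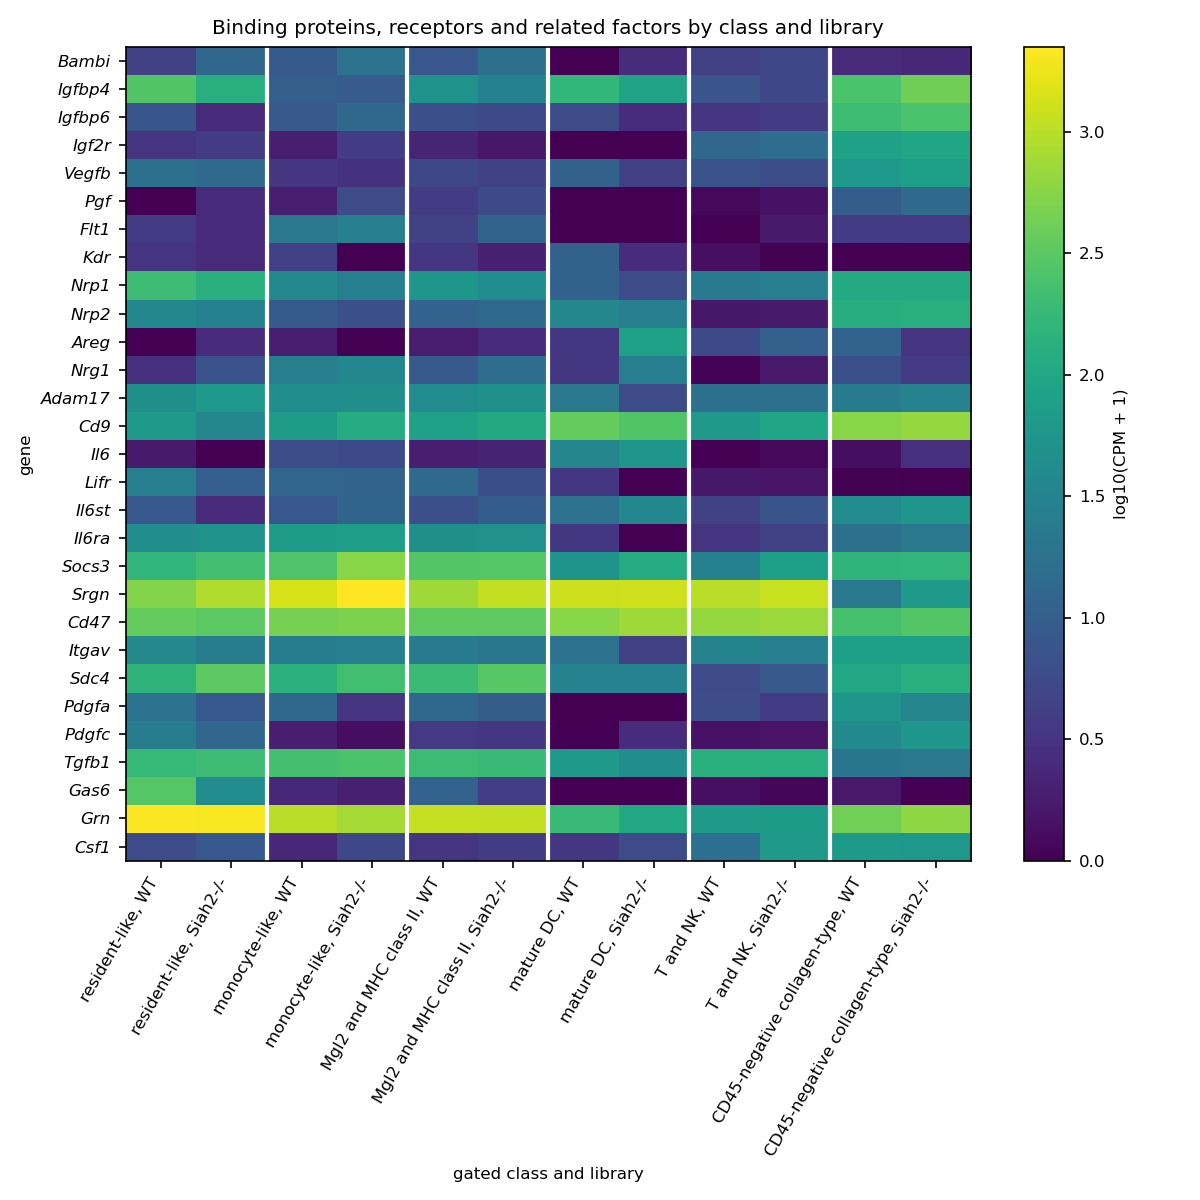
Heat map of log10(CPM + 1) for 29 ligands, carriers and receptors related to the members (rows) in 6 gated classes with the WT and the Siah2-/- library side by side (columns). Igfbp6, Igf2r and Nrp2 are brightest in CD45-negative cells and Gas6 in WT resident-like cells.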

How the data were processed

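Single cells had been captured by the 10x 3' v2 chemistry in 1 library per genotype. Per the labels, reads were processed by the authors with bcl2fastq and Cell Ranger against mm10 (GRCm38), their versions not given in the sources used here; the output was deposited as UMI counts for all barcodes and for filtered cells. The authors also deposited natural log normalized values, used here for their cell names only. UMI counts of those cells were summed by library and marker-gated class, given as CPM with exact 95% intervals (Poisson for CPM, Clopper-Pearson for shares, conditional binomial for ratios), and no test was made. A gene was tested for a 2-fold difference with at least 20 UMIs over both libraries. For co-detection, cells were thinned to 4000 UMIs. Gate thresholds were set after seeing the data, and the members and lists were chosen with earlier results of these data known. Named were the members, list genes that reached 50 CPM in a gated class or 2-fold in macrophages, and the 5 genes most like Inhba and Igf1 in pattern. Of the lists, 8 genes are not analysed here. Values of 1 macrophage state and 1 marker of the macrophage gate are not reported here. The cells of that state stay in the macrophage sums, and it is left out of the correlations and the mean over states. Promoters came from the RefSeq table, and those of Hbegf, Osm and Thbs1 are not analysed here. Python 3.11.15, numpy 2.4.6, scipy 1.17.1, pandas 2.3.3, scanpy 1.11.5, leidenalg 0.10.2 and matplotlib 3.10.9 were used, and the scripts were tested on simulated data.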

Additional observations from a re-analysis of the deposited data

Results flagged for a closer look

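Hbegf had a log2 ratio of Siah2-/- to WT of -1.22 (-1.78 to -0.70) in CD45-negative cells and of 1.23 in macrophages. Over all macrophages the share of cells with a UMI was at or below that of T and NK cells, while in Leiden cluster 7 the level was 19.7 and 35.1 CPM. Hbegf is listed because its 2 log2 ratios point in opposite directions. The difference between them was not tested, with 1 library per genotype. Pf4 had a log2 ratio of 0.78 (0.31 to 1.28) in T and NK cells and of 1.05 (0.34 to 1.71) in CD45-negative cells, against -0.56 in macrophages, and these differences were not tested either. The Pf4 levels behind the values outside macrophages were 4.40 and 7.57 CPM, and 3.54 and 7.31 CPM, with 211 and 170 CPM in empty droplets.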

How the results depend on the processing

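Each member kept its direction in macrophages under the 10 alternatives tried for it. The log2 ratios that moved beyond their counting interval are these. With cells of at least the lowest WT UMI count, Pf4 was at -0.42, Osm at 0.96 and Thbs1 at 1.62. With all barcodes of at least 1000 UMIs they were -0.36, 0.78 and 1.34. Scaling by the median ratio of genes, the log2 of which was -0.05 so that each log2 ratio rose by 0.05, gave Pf4 -0.51. With each cell weighing the same, Pf4 was at -0.62, Osm at 1.26 and Thbs1 at 2.35. The mean over states gave Inhba 2.18, Igf1 -2.16, Vegfa 1.61, Pf4 -0.61, Osm 0.84 and Thbs1 1.85. Osm was thus within 2-fold under 3 of these settings, and Hbegf under 2, at 0.87 with all barcodes of at least 1000 UMIs and 0.98 as the mean over states. In macrophages with no T and NK, neutrophil or platelet marker UMI, an alternative chosen after seeing the data, Inhba was at 3.20, Igf1 at -4.71, Hbegf at 1.78, Pf4 at -1.10, Osm at 1.40 and Thbs1 at 2.29. The causes of these shifts were not tested. Genes at least 2-fold higher and lower numbered 1132 and 891 with no minimum besides 1 UMI, and 312 and 210 with a minimum of 100 UMIs, against 557 and 387. When Leiden clusters replaced the gated states, the highest levels were 53.7 CPM for Igf1, 35.1 for Hbegf, 1038 for Pf4, 963 for Osm and 1248 for Thbs1. The share of macrophages with Inhba and Igf1 together was 0 in WT under every alternative run and 0.0426% to 0.128% in the Siah2-/- library. No paired analysis was possible because there was 1 library per genotype.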
